A study of Caenorhabditis elegans with 4 samples.

Results

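The 1000 strongest binding regions of the transcription factor CES-1 in Caenorhabditis elegans embryos were described by their place on the chromosomes, their spacing, their width and their standing in each replicate. They are the regions with peak numbers 1 to 1000 in the combined list of the series, which holds 8678 regions, so they make up 11.5% of it. They were chosen by this peak number, which the authors gave to each region and whose making is not stated. A low number is read here as a strong region because the authors' score falls with the number beyond number 4629. The fall holds over the list as a whole but not from each number to the next, as described below. Up to that number the score is constant, so at the limit of 1000 strong and weaker rest on the number alone. All 1000 lie on nuclear chromosomes, and they cover 344 kb in 995 separate stretches once regions that overlap each other are merged.

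CES-1 belongs to the Snail family of zinc-finger proteins, which bind E-box-like DNA motifs and act mainly as transcriptional repressors. In the worm it is best known for a cell death decision in the pharynx. There it keeps the sister cells of the NSM neurons alive when it is too active, by repressing egl-1, a gene whose product starts the cell death pathway. It also takes part in the asymmetric division of the NSM neuroblast.

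The series comprises 4 libraries of chromatin from strain OP174, grown at 20 degrees Celsius and crosslinked with 2% formaldehyde. In 2 of them (ChIP) the tagged protein was pulled down with antibodies to GFP, and the other 2 (Input) are whole extract. Every library comes from embryos of a population with males and hermaphrodites, with the allele unc-119(ed3) and the transgene wgIs174, which joins ces-1 to TY1, EGFP and FLAG and also carries unc-119. The controls therefore carry the transgene too, and no strain without the tag is among the labelled samples. The transgene was introduced by bombardment. The antibody to GFP sees only the fusion protein, and in whole embryos binding is pooled over all cells. The labels do not tell whether separate cultures were used for the replicates, so differences between them may be technical.

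Each replicate has a list of 30000 numbered regions, and no list of an Input library was used here. The authors' score, given for each region beside its number, stood at its ceiling of 3.97 in numbers 1 to 4629, so it cannot order the strongest 1000 and the peak number was used alone. Below the ceiling the score fell with the number over the list as a whole (Spearman correlation, sign reversed, 0.996). From one number to the next it rose in 3527 of 4048 steps, and it exceeded that of a lower number by up to 0.0428. The lists hold no read counts, and depth is unknown. Genes could not be assigned, because the lists use build WormBase WS220 and the annotation at hand is of another build. Regions are not replicates of a condition and were split by rank, so differences between strong and weaker regions are given as values with no test. Shares have 95% Wilson intervals, which cover counting error only.

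The strongest regions were spread over the 6 chromosomes much as the weaker ones were. Chromosome X held 216 of the 1000 (21.6%, 95% Wilson interval 19.2 to 24.3), against 23.4% (22.4 to 24.3) of the 7678 regions numbered above 1000; over all combined regions the share was 23.2%. Chromosome III held 173 (17.3%, interval 15.1 to 19.8), against 15.1% (14.3 to 15.9) of the weaker regions. On each of the 6 chromosomes the 2 intervals overlapped. Chromosome I held 183 of the strongest regions, V held 148, II held 143 and IV held 137. Per length, III (12.6 per Mb of its span), X (12.2 per Mb) and I (12.2 per Mb) had the most and V the fewest (7.07 per Mb), with 9.36 per Mb on II and 7.83 per Mb on IV. Within each chromosome, the strongest regions made up between 10.6% of the combined regions on IV and 13.0% on III.

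**Figure D1:**
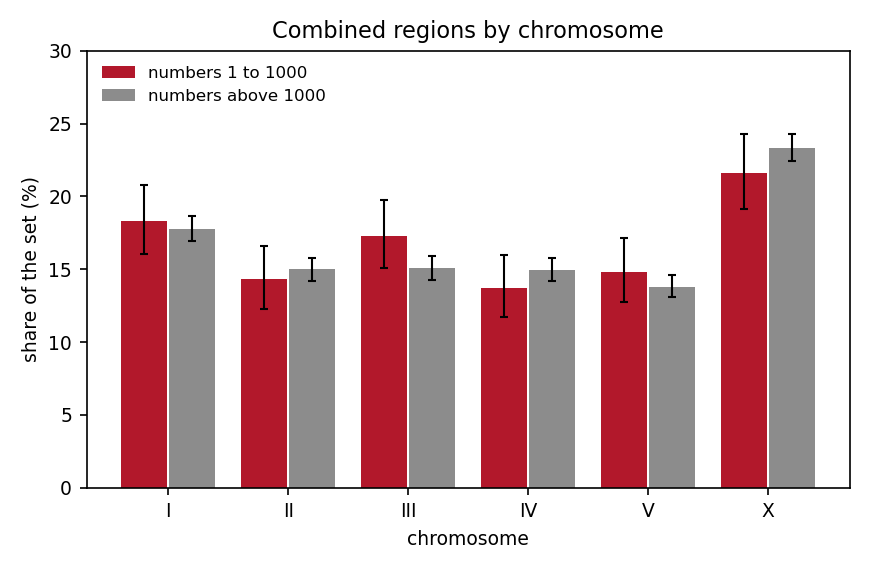
Share of combined regions on each chromosome (percent), for peak numbers 1 to 1000 and for numbers above 1000, with 95% Wilson intervals as bars. The paired bars overlap in their intervals on every chromosome, with X at 21.6% of the strongest regions and 23.4% of the weaker ones.

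Within the strongest 1000 the share on X varied with no steady order. X held 28 of numbers 1 to 100, but 57 of numbers 1 to 250 (22.8%), 44 of numbers 251 to 500 (17.6%), 59 of 501 to 750 (23.6%) and 56 of 751 to 1000 (22.4%). Chromosome V went the other way in numbers 251 to 500, with 51 regions (20.4%) there, against 36 in numbers 1 to 250, 27 in 501 to 750 and 34 in 751 to 1000. The remaining chromosomes moved less, with I between 45 and 47 regions in each of these 4 runs. These swings within the strongest regions have few regions behind them, and none was tested.

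The first 3 regions of each chromosome made up 18 regions at the top of the list. They carried numbers 1, 5 and 11 on I, 8, 9 and 23 on II, 16, 22 and 26 on III, 10, 13 and 19 on IV, 6, 7 and 12 on V, and 2, 3 and 4 on X. Among these, the region numbered 22 lay at chrIII:13643360-13643810 (WS220) and was 451 bp wide, with the nearest other combined region 5.41 kb away, itself one of the strongest 1000. The region numbered 13 lay at chrIV:4585966-4586376, was 411 bp wide and had its nearest combined neighbour 2.16 kb away, while the nearest of the strongest 1000 was 80.5 kb away. The centres of its overlapping regions in the replicates were 1 bp apart. Number 19, at chrIV:10936819-10937290, was 145.621 kb from the nearest other of the strongest 1000 but only 0.434 kb from a weaker region. Number 23, at chrII:3502654-3503051, was the most isolated of the 18, with no other combined region within 16.1 kb. The 18 thus hold regions in tight company and regions that stand well apart.

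Along the autosomes the strongest regions were no more central than the weaker ones. The middle 33.3% of the autosomal spans held 316 of 784 strongest regions (40.3%, 95% Wilson interval 36.9 to 43.8), against 42.3% (41.0 to 43.5) of the weaker regions, the share over all autosomal regions being 42%. Chromosome V had the highest central share, with 77 of 148 strongest regions (52.0%) against 48.2% of its weaker ones. Chromosome III had the lowest among the autosomes, with 56 of 173 (32.4%) against 37.7%. On X the middle held 67 of 216 strongest regions (31.0%, interval 25.2 to 37.5), against 35.9% (33.7 to 38.2) of weaker regions, and the left end held 84 (38.9%, interval 32.6 to 45.5), against 33.7% (31.6 to 36.0).

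The strongest regions lay nearer to each other than equally large sets of weaker regions did at distances of 1 to 20 kb. Spacing depends on how many regions are taken, so each later run of 1000 numbers was measured within itself. Another of the strongest 1000 lay within 10 kb of 373 of them (37.3%, 95% Wilson interval 34.4 to 40.3), against 28.0% to 34.8% in the 7 later runs of 1000 up to number 8000. Within 5 kb it was 265 (26.5%, interval 23.9 to 29.3), against 15.8% to 20.8%, and within 1 kb it was 80 (8.00%, interval 6.47 to 9.85), against 4.20% to 7.40%. At 20 kb the values came closer, with 48.7% against 42.4% to 47.8%. The median distance to the nearest of the same set was 21321 bp in the strongest 1000, against 22996 to 27315 bp in the 7 later runs. Farther out the order turned, and the upper quartile of this distance was 65189.5 bp in the strongest, against 58169.5 to 62689 bp. The closer spacing depended on the limit and on the replicate. With the first 2000 numbers in place of 1000, 51.15% had another within 10 kb, against 49.25% in the next 2000. Ranked by replicate 2 alone, 36.5% of the first 1000 numbers had another of them within 10 kb, against 28.6% in the next run; ranked by replicate 1 alone it was 33.6% against 32.8%.

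**Figure D2:**
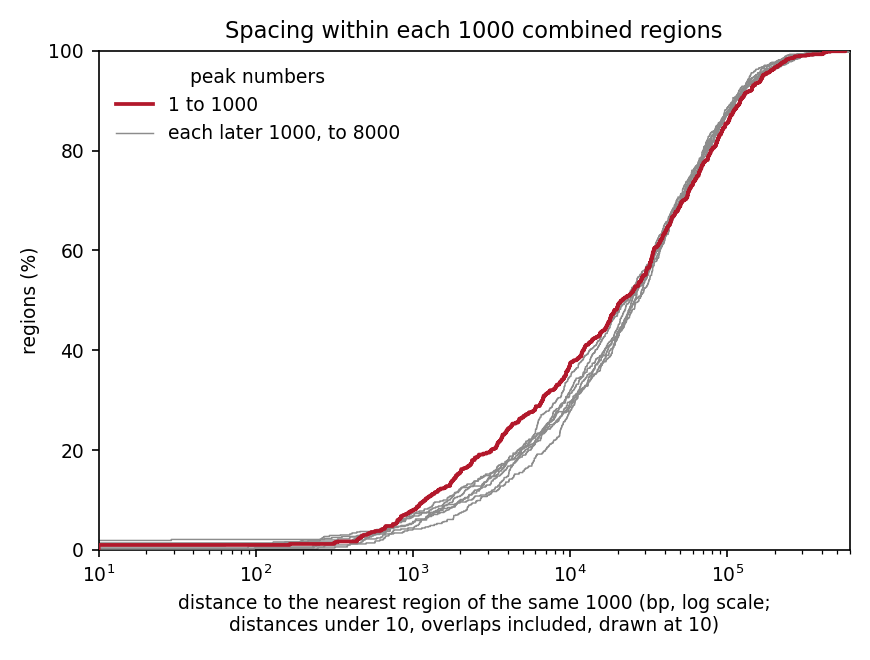
Share of regions (percent) whose nearest region of the same set lies within a given distance (bp, log scale), for peak numbers 1 to 1000 (red) and for each later 1000 up to number 8000 (grey). The red line runs above all grey ones at 5 kb, where it reaches 26.5% and they reach 15.8% to 20.8%. At longer distances it passes below them, with an upper quartile of 65189.5 bp against 58169.5 to 62689 bp.

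Most of the strongest regions nevertheless had no other of the strongest nearby. Linked by gaps of up to 5 kb, 735 of the 1000 stood alone among the strongest, 184 formed 92 pairs, 57 formed 19 groups of 3, and the remaining 24 made up 5 groups of 4 to 6. Linked by up to 1 kb, 920 stood alone. The group with most regions lay on V, at chrV:9763758-9772293, where 6 of the strongest regions in 5 intervals, together with 5 weaker regions, fell within 8.54 kb. It held number 7, 834 bp wide at chrV:9765343-9766176, and numbers 88, 100, 272, 367 and 759. Its numbers 272 and 367 shared the widest interval among the strongest regions, 1307 bp at chrV:9768655-9769961.

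The other groups were of different makeup. A second one on V, at chrV:13018229-13029285, held 5 of the strongest regions spaced 1.60 to 3.67 kb apart, with number 33 in the middle of the row and 7 weaker regions among them. The group at chrX:2920404-2926298 packed 5 into 5.89 kb, and these had similar numbers, 490, 575, 578, 617 and 882, rather than a dominant region. Their numbers in replicate 1 ran between 532 and 822, and in replicate 2 between 480 and 957. On II, numbers 160, 194, 481 and 692 lay at chrII:9304832-9312078 with 4 weaker regions. The fifth, at chrV:3451649-3455701, held numbers 401, 404, 451 and 512 within 4.05 kb and no weaker region. In it, number 451 held 1088 in replicate 1 and 234 in replicate 2. So 3 of the 5 fullest groups lay on V, the chromosome with fewest strongest regions for its span.

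The same contrast showed in the spacing on V as a whole. There the median distance between nearest strongest regions was 33.5 kb, the longest of the 6 chromosomes, while 40.5% had another within 10 kb, a share above that of X (38.9%) and below that of I (42.6%). On I the median was 15.1 kb. Among windows of 100 kb, 441 (43.9%) held none of the strongest regions, 317 held 1, 134 held 2, and 8 held 6 or 7. The fullest were chrX:14600001-14700000, chrIII:8800001-8900000 and chrI:11100001-11200000 with 7 each, among 21, 20 and 19 combined regions. Next, by best number, came chrV:9700001-9800000 and chrV:13000001-13100000 with 6 each, the windows of the first 2 groups above. The longest stretch between strongest regions on V was 1238 kb, at chrV:15511914-16749546, with 20 weaker regions in it. On II it was 1221 kb, at chrII:1344133-2564882, with 23 weaker ones. On III, where the longest was shortest, it was 389 kb with 22 weaker regions. These stretches were chosen after their values had been seen.

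When all combined regions were counted as neighbours, isolation hardly differed. No other combined region lay within 10 kb of 101 of the strongest regions (10.1%, 95% Wilson interval 8.38 to 12.1), against 10.3% (9.63 to 11.0) of the weaker ones; over all combined regions it was 10.3%. Chromosome II stood out in its value, with 24 of its 143 strongest regions isolated (16.8%, interval 11.5 to 23.8), against 9.73% (8.15 to 11.6) of its weaker regions. On I it was 11 of 183 (6.01%, interval 3.39 to 10.4), against 8.71% (7.33 to 10.3). The direction differed between chromosomes, with higher values for the strongest regions on II and III and lower ones on I, IV, V and X.

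The 5 most isolated regions were found in both replicates. Number 320, at chrV:16965671-16965955, had no combined region within 110.466 kb and was number 203 in replicate 1 and 616 in replicate 2. Number 977, at chrV:17749220-17749469, was 108.447 kb from any other and held numbers 1338 and 897 in replicates 1 and 2. On II, number 55 at chrII:9838523-9838884 stood 61.3 kb apart and held numbers 73 and 44, and number 136 at chrII:2564883-2565262 stood 60.2 kb apart and held numbers 71 and 206. The last, number 281 at chrI:2157114-2157454, stood 59.966 kb apart and held numbers 351 and 256. Each was narrower than 400 bp, at 285, 250, 362, 380 and 341 bp, and the replicate centres of each lay within 19 bp of each other.

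At the near end of the scale more of the strongest regions had a listed neighbour. The difference lay in overlapping regions, among them the same interval listed again under another number. Another combined region lay within 1 kb of 459 of them (45.9%, 95% Wilson interval 42.8 to 49.0), against 41.9% (40.8 to 43.0) of weaker regions, the share over all being 42.4%. Runs of 1000 weaker numbers, and the last run of 678, ranged from 39.3% to 45.3%, so the value for the strongest was above each of these 8 but close to the upper ones. In 416 of the 459 a weaker region was within 1 kb, and in 80 another of the strongest was. The share was highest at the top, with 58 of numbers 1 to 100, and 106 of 250 (42.4%) in each of the runs 501 to 750 and 751 to 1000. Seen from the other side, 524 of the 7678 weaker regions (6.82%) had one of the strongest within 1 kb and 2428 (31.6%) within 10 kb.

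Without overlap, the nearest combined region lay within 1 kb for 290 of the strongest (29.0%), against 28.7% of the weaker, so these shares hardly differed. The overlaps differed more, but they include identical intervals listed again under another number. Regions with such a repeat made up 63 of the 169 overlapping strongest regions, against 66 of the 1016 overlapping weaker ones. The repeat shares, given below, differed by more than the overlap shares. The higher overlap share thus does not show more separate neighbours around the strongest regions. Of the strongest regions, 169 (16.9%, 95% Wilson interval 14.7 to 19.3) overlapped another combined region, against 13.2% (12.5 to 14.0) of the weaker ones and 13.7% over all; for 161 a weaker region was among those overlapped and for 10 another of the strongest was. An identical interval was listed again under another number for 63 of the strongest regions (6.30%, interval 4.95 to 7.98), against 66 of the weaker (0.860%, interval 0.676 to 1.09) and 1.49% over all. In 56 intervals one of the strongest was repeated by a weaker number, whose median was 4485 and whose range was 1380 to 8642. The repeats were most frequent at the top, with 16 of numbers 1 to 100 and 8 of the 250 numbers from 751 to 1000. The repeated regions were wide, with a median of 499 bp (quartiles 451 and 569), against 321 bp (quartiles 278 and 381) for the other 937.

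Repeated intervals also stood in the replicate lists, again among their strong regions. Replicate 1 listed 23 of its first 1000 numbers with an interval it also gave to another number (2.30%), against 18 of the 29000 later ones (0.0621%). Replicate 2 listed 48 (4.80%), against 43 (0.148%). Both replicates had a repeated interval under 10 of the 63 repeated strongest regions and under 2 of the other 937. A clear case is the interval at chrX:10765961-10766513, which carried numbers 3 and 876 in the combined list, 3 and 893 in replicate 1, and 6 and 829 in replicate 2. It was picked after its values had been seen. Since the lowest overlapping number was taken in each replicate, number 876 is given numbers 3 and 6 in what follows, although a closer match is listed.

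The strongest regions rarely had the width that dominated the rest of the list. Only 6 of the 1000 (0.600%, 95% Wilson interval 0.275 to 1.30) were exactly 440 bp wide, the most common width of the list, against 5976 of the weaker regions (77.8%, interval 76.9 to 78.7) and 68.9% over all. Their median width was 326 bp (quartiles 281 and 393), against 440 bp in the weaker regions, where both quartiles were 440 bp too. Leaving out regions at 440 bp, the medians were 326 bp in 994 strongest and 195 bp in 1702 weaker regions. Widths above 440 bp were found in 144 of the strongest (14.4%), against 75 of the weaker (0.977%), and widths below it in 850 of the strongest (85.0%), against 1627 of the weaker (21.2%). Widths over 600 bp were found in 21 of the strongest and 17 of the weaker, and widths under 200 bp in 8 of the strongest (0.800%) and 891 of the weaker (11.6%).

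Within the strongest 1000 the width followed the number. The median was 453.5 bp in numbers 1 to 100, 394 bp in 101 to 250, 336.5 bp in 251 to 500, 302 bp in 501 to 750 and 267 bp in 751 to 1000. In the next 1000 numbers it was lower still, at 222 bp, with 98 regions at 440 bp, and in numbers 2001 to 3000 as many as 509 were at 440 bp. The limit at 1000 thus falls inside a gradual decline of width, before the common width takes over. The narrowest of the strongest were number 789 (110 bp, chrV:9157708-9157817), number 997 (150 bp, chrIV:8040790-8040939) and number 968 (175 bp, chrX:11552926-11553100). In replicate 1 the regions under numbers 789 and 997 were 440 bp wide, the common width there, and in replicate 2 they were 157 and 147 bp wide.

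**Figure D3:**
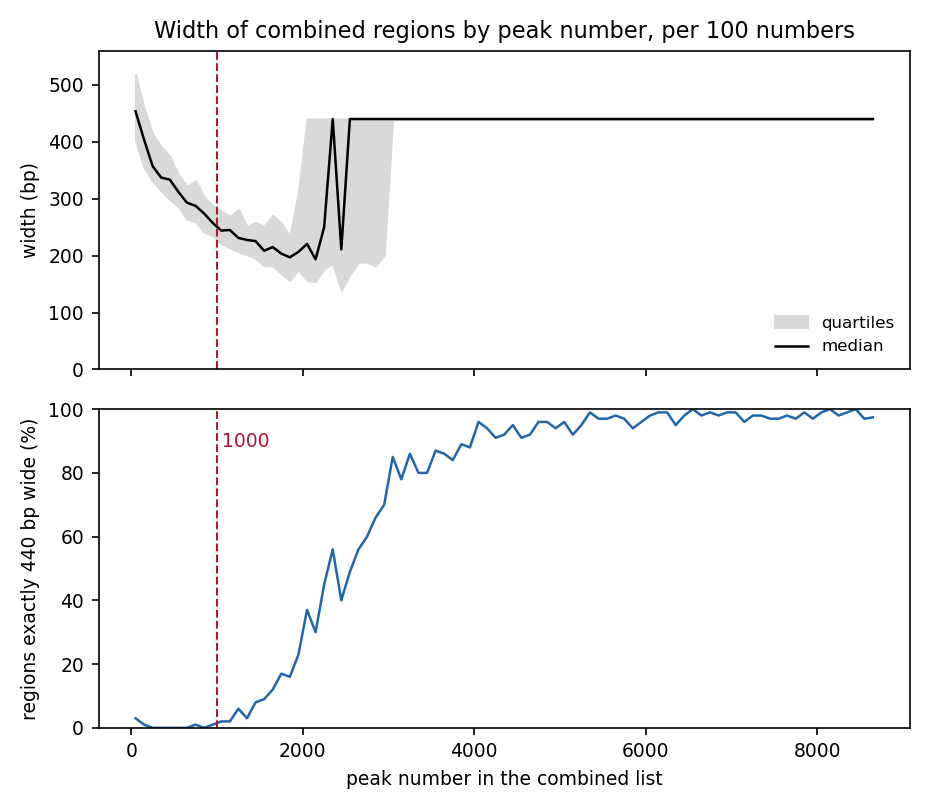
Width of combined regions (bp, upper panel, median with quartiles) and share of regions exactly 440 bp wide (percent, lower panel), in steps of 100 peak numbers, with the limit at 1000 dashed. The median falls through the strongest 1000, where 0.600% of regions are 440 bp wide, and regions of that width take over beyond number 2000.

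The replicates gave the same picture of width. Under the strongest regions, the best replicate 1 region had a median width of 253 bp and was at that list's common width of 440 bp in 76 of 998 cases (7.62%), against 91.5% under the weaker regions. In replicate 2 the median was 287 bp, and 10 of 999 were at its common width of 436 bp, against 83.6%. The combined regions were wider than the regions of either replicate under them in these medians.

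In the replicates the strongest regions were nearly all present and near the top. The combined list stands for these same replicates, so their numbers are not independent of the choice of regions and are described without a test. Replicate 1 had a region overlapping 998 of the 1000 by at least 1 bp, replicate 2 had 999, and both had 997 (99.7%, 95% Wilson interval 99.1 to 99.9), against 98.6% (98.3 to 98.8) of the weaker regions and 98.7% over all. The best of the overlapped regions was at the score ceiling of its replicate in every case. The ceiling was also reached by the best overlapped region for 998 and 999 of the next 1000 regions in replicates 1 and 2, and for 3410 and 4759 of all weaker regions. The lowest overlapped number had a median of 499.5 in replicate 1 (range 1 to 1920) and of 502 in replicate 2 (range 1 to 2096). In both replicates it was at most 1000 for 791 regions (79.1%, interval 76.5 to 81.5), in replicate 1 alone for 102, in replicate 2 alone for another 102, and in neither for 5. Of the weaker regions, 123 (1.60%) met this in both, and over all combined regions it was 10.5%.

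**Figure D4:**
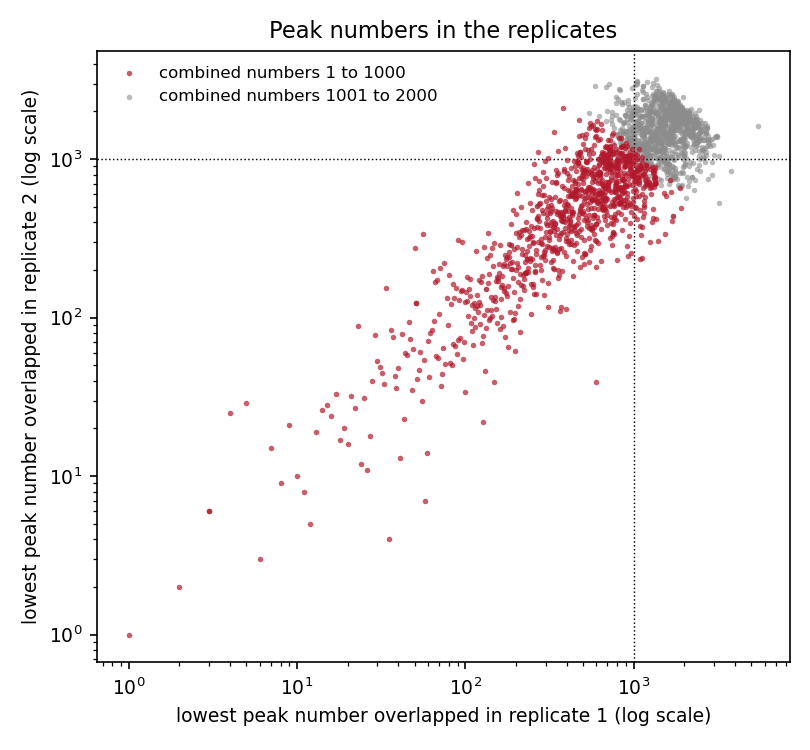
Lowest peak number overlapped in replicate 1 and replicate 2 (both log scales) for combined regions numbered 1 to 1000 (red) and for the next 1000 (grey), with dotted lines at 1000. Red points cluster along the diagonal up to 1000 in both replicates, where 791 of them lie, and the highest red values are 1920 in replicate 1 and 2096 in replicate 2.

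By the factor between their numbers, the replicates ranked the strongest regions about as alike as the pooled weaker ones, but less alike than the next runs. Their 2 numbers differed by a factor of 2 or less in 822 strongest regions (82.2%), against 84.0% of the weaker, with a median factor of 1.40, against 1.37. They differed by a factor of more than 4 in 19 of the strongest, against 91 of the 7678 weaker. The higher number was that of replicate 2 in 511 regions and that of replicate 1 in 481, with 5 equal, so neither replicate ranked them lower throughout. All of numbers 1 to 100, and all of 101 to 250, were within the first 1000 of both replicates. In numbers 751 to 1000, 78 of 250 were. Just inside the limit, the last 5 numbers up to 1000 had replicate 1 numbers of 823, 1641, 845, 1038 and 1890 and replicate 2 numbers of 1367, 739, 1366, 920 and 655. Just outside, the next 5 numbers had 793, 802, 1327, 980 and 942 in replicate 1 and 1127, 1053, 850, 1078 and 1187 in replicate 2, so the limit marks no break in these values.

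The largest factors arose in different ways. Number 423, at chrIII:8417231-8417877, held number 602 in replicate 1 and number 39 in replicate 2, a factor of 15.4. Its replicate 2 number 39 belonged to a region that mostly underlies its overlapping neighbour, number 71, and a further replicate 2 region under it was number 325. Number 14 on X, at chrX:16681852-16682303, held numbers 35 and 4 in replicates 1 and 2, and number 26, at chrIII:1921090-1921848, held 58 and 7. The opposite order was seen for number 10 on IV, which held 4 and 25, and for number 156, at chrIII:3867396-3867729, which held 56 and 335. In each of these 4 only a single region of each replicate was overlapped, with centres at most 16.5 bp apart, so the place agreed where the rank did not.

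The 3 strongest regions missing from a replicate were not alike. Number 326, at chrII:7072608-7073055, was number 461 in replicate 2, while the nearest replicate 1 region lay 10.8 kb away. Number 787, at chrII:10350417-10350695, was number 950 in replicate 2, and the nearest of replicate 1 lay 7.33 kb away. Number 901, at chrV:10961331-10961652, held number 713 in replicate 1 and missed a replicate 2 region by 11 bp. Of each replicate's own first 1000 numbers, 994 and 999 were nuclear in replicates 1 and 2. In replicate 1, 893 of these overlapped one of the strongest combined regions, 100 overlapped weaker ones and 1 overlapped none. In replicate 2 it was 896, 95 and 8, and the best of the 8 was number 144 there.

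The replicates placed most of the strongest regions within 50 bp of each other, 935 of 997 (93.8%), against 65.0% of the weaker, and 3 of the strongest lay over 200 bp apart. The centres of the best overlapping regions were a median of 13 bp apart (quartiles 6 and 24, n = 997 regions), against 31.25 bp (12 and 70, n = 7568) for the weaker regions. The median was 19 bp in the next 1000 numbers and 58 bp in 8001 to 8678, and it was higher in each later run. Among the strongest, it was 8.75 bp in numbers 1 to 100 and 16 bp in 751 to 1000. These distances went with width. Where neither replicate region had its list's common width, the median was 12.5 bp in 914 of the strongest and 14 bp in 568 of the weaker. Where at least 1 had it, the median was 23 bp in 83 of the strongest and 34 bp in 7000 of the weaker.

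**Figure D5:**
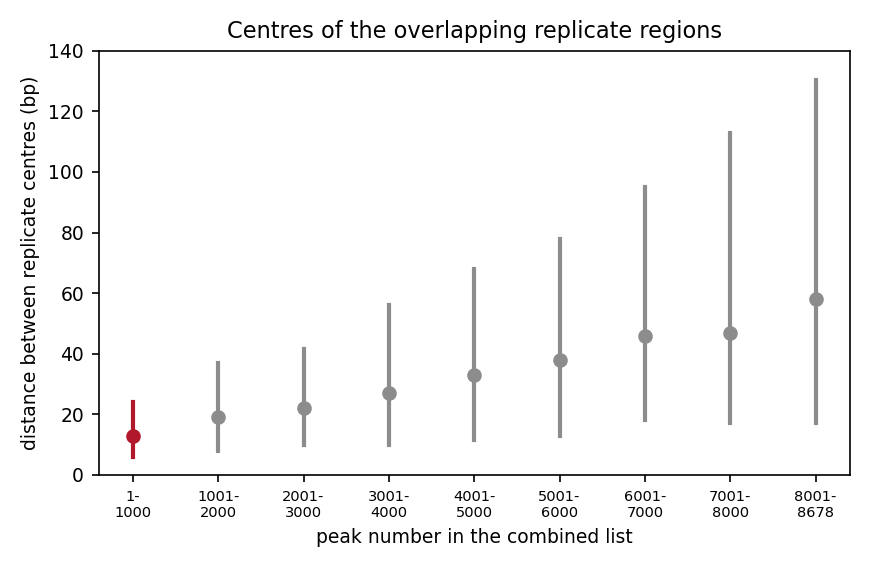
Distance between the centres of the best overlapping regions of the replicates (bp), as median (point) and quartiles (line), by run of combined peak numbers. The strongest 1000 have a median of 13 bp, and the medians of later runs climb to 58 bp.

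The number of replicate regions under each of the strongest was like that of the pooled weaker ones. In replicate 1, 297 of the strongest regions (29.7%) overlapped more than 1 region, against 31.8% of the weaker, and in replicate 2 it was 289 (28.9%), against 32.7%. In both replicates together 163 did so (16.3%, 95% Wilson interval 14.1 to 18.7), against 16.4% (15.6 to 17.3) of the weaker regions and 16.4% over all. Within 1 kb on either side, outside the region itself, there was a mean of 1.14 further replicate 1 regions and 1.18 of replicate 2 around the strongest, against 1.13 and 1.15 around the weaker. The surroundings of a strong region thus held about as many listed regions as those of a weaker one.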

How the data were processed

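Peak lists of the 2 ChIP replicates and the combined list were used. Per the file headers, the build was WormBase WS220, and the lists' source field names SPP and IDR. Not given in the sources used here are versions, thresholds, the aligner and the making of the combined list. Each region carries a score deposited by the authors, on a scale that is not stated, and a peak number. Members, comparisons and rules were chosen with earlier results of these data known. Named regions were the first 3 by number of each chromosome, the 5 numbers on either side of 1000, and fixed counts of the most extreme in width, isolation, grouping, windows and replicate ratio, plus those missing from a replicate.

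Overlap meant at least 1 bp, distances ran between edges, and coordinates count from 1. In each replicate the lowest overlapped number was taken. Chromosome spans end at the last region of any list. Python 3.11.15, numpy 2.4.6, pandas 2.3.3, scipy 1.17.1 and matplotlib 3.10.9 were used. Interval steps were tested on simulated data, and 6 of 6 known answers were recovered. Alternatives changed the number limit, distances, overlap, merging, central part and replicate.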

Additional observations from a re-analysis of the deposited data

How the results depend on the processing

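Under 44 alternatives for 7 results, 30 values stayed within the main value's interval and 14 moved out of it. Leaving out repeated intervals was chosen after seeing the data. The cause of the moves was not tested, beyond what a changed limit or distance brings by construction. With numbers 1 to 500 as members, 23.6% were within 10 kb of another, against 19.8% in the next 500, and the median width was 379.5 bp. With 1 to 2000 the share was 51.15%, against 49.25% in the next 2000 (95% Wilson intervals 48.96 to 53.3 and 47.1 to 51.4), and the width 274.5 bp. The share within 10 kb became 8.00% at 1 kb and 26.5% at 5 kb, and the isolated share 18.8% at 5 kb and 3.30% at 20 kb. The middle 50% of each autosome's span held 58.9% of members (95% Wilson interval 55.4 to 62.3), against 63.1% (61.9 to 64.4) of the weaker regions. Under this setting the members were thus less central. With 50% reciprocal overlap 91.3% of members were found in both replicates, and 74.5% in the first 1000 of both, against 82.7% and 0.794% of the weaker. Ranked without replicate 1 or without replicate 2, the share within 10 kb was 36.5% and 33.6%, against 28.6% and 32.8% in the next run. In the same order, the median width was 288 and 253 bp, against 436 and 440 bp in the weaker regions. The X share was 21.9% and 21.8%, against 23.3% and 22.9%. The central share was 41.3% and 39.4%, against 43.8% and 41.8%. The isolated share was 9.51% and 10.8%, against 10.8% and 10.6%. The order of strongest against weaker turned in 5 alternatives, 4 for isolation and 1 for the central share, where the values lay close. No paired analysis was possible because the Input libraries entered without lists of their own. With no counts in the lists, what greater depth would change cannot be told.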
